A study of Saccharomyces cerevisiae with 72 samples.

Results

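Methyl methanesulfonate (MMS), a DNA alkylating agent, was given to 5 yeast deletion strains, and the account below is of the transcript changes that these strains had in common. The strains were hap1, hap4, sut1, rcs1 and yap7, each BY4741 lacking 1 transcription factor gene; RCS1 is the older name of AFT1. They fill 20 of the 72 arrays of the series, 4 arrays to a strain. Cultures of each strain were divided, and one portion received 0.03% MMS for 1 h while the other stayed untreated. Total RNA of both portions was hybridised to a 2-colour Agilent array, and 10 of the 20 arrays carried the MMS sample in Cy5 and 10 in Cy3. The arrays with opposite dyes of one replicate number were averaged, which left 2 replicates a strain and 10 in all. Whether the replicates were grown apart is not in the labels, and the p-values of the main fit rest on the spread between replicates within these strains alone. Every value is a log2 ratio of MMS over untreated within a strain, taken as base 2, and gives no transcript level. No wild type was hybridised on this array design, so a gene with the same change in all 5 strains was measured here only in cells that already lacked 1 factor.

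MMS methylates bases, and the lesions are removed mainly by base excision repair; lesions that block replication forks activate the Mec1 and Rad53 kinases. In budding yeast the Rad53-Dun1 branch of that pathway relieves repression of the ribonucleotide reductase genes, and alkylated proteins and depleted glutathione also engage oxidative stress, proteasome and general stress programmes. Hap1 is a heme-responsive activator, Hap4 the activating subunit of the Hap2/3/4/5 complex for respiratory genes, Sut1 a regulator of sterol uptake, Aft1 the iron-responsive activator, and Yap7 a bZIP factor of the Yap family. BY4741 carries a Ty1 insertion in HAP1 that weakens the protein, which limits what the hap1 deletion removes.

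The fit of limma gave 1 mean per strain and tested the mean of the 5 strain means against 0, with Benjamini-Hochberg adjustment over 5592 genes. A gene was called at an adjusted p under 0.05. By this rule 2255 genes rose (40.3%) and 2161 fell (38.6%), so that a call alone sets a gene little apart. The calls reached small values: the median half-width of the 95% interval of a gene's mean was 0.07 on the log2 scale. That interval and each SE given below leave out the spread among strains. The SD of the 5 strain means had a median of 0.09. With the 5 strain means as the units, 2133 genes were called higher and 1987 lower. URA3, which BY4741 does not carry, was called lower at -0.28 and LEU2, also removed, at -0.13, both with no transcript of their own to measure. Tested against a 1.2-fold change in place of 0, both calls were lost. So were those of DIF1, SML1, SGS1, MEC1, MCM3, MCM4, MCM6, GND1, CAR1, CAR2, CYC7, CTT1, HMX1, RPN14 and HIS3 among genes named below. The calls of the deleted genes HAP1, AFT1 and YAP7 were lost too. A change of at least 2-fold was called upward for 152 genes (2.72%) and downward for 63 (1.13%). Of these 215 genes, 214 had one sign in all 10 replicates, and the exception was NDE1.

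A gene was said to move alike when it was called, its 10 replicate values had one sign, and the strain mean smallest in size was at least 0.5 of the largest. Tested strain by strain, from 2642 genes in sut1 to 3192 in hap1 were called, and 1842 in all 5, of which 1836 had one sign. There were 1654 genes moving alike, 925 higher (16.5%) and 729 lower (13%). Each count of list members moving alike below is to be read against these shares. Counts of members called higher or lower are to be read against 40.3% and 38.6% of all genes. Among genes changed at least 2-fold, 193 of 215 moved alike, 140 higher and 53 lower, and 189 of them had one sign on all 20 arrays. The members nearest the limit were ECL1, ATG41 and GPM2, with ratios of 0.51, 0.52 and 0.53 of smallest to largest strain mean. Just outside it stood PRM5, FMP45 and YNL194C, with ratios of 0.48, 0.46 and 0.45.

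The sut1 arrays went against their replicate numbers. With each gene's dye effect removed, arrays that share a number correlated at 0.74 and 0.71 over genes, while replicate 1 in Cy5 correlated with replicate 2 in Cy3 at 0.82 and replicate 1 in Cy3 with replicate 2 in Cy5 at 0.83. The median difference between 2 averaged arrays was 0.20 by number and 0.16 across numbers in sut1; in the other strains it was 0.14 to 0.16 by number and 0.15 to 0.16 across. Ribosome biogenesis genes had medians of -0.54 and -0.26 on the first pair of sut1 arrays and 0.26 and 0.17 on the second. The averaged sut1 replicates differed by a median of 0.11 by number and 0.15 across numbers. The sut1 mean holds the same 4 arrays either way. Paired across numbers, 193 genes again moved alike at least 2-fold, the same 193, but the F-test of differences between strains called 64 genes in place of 110. Each F-test given below was therefore run both ways, and a call that was lost is named beside its value.

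HUG1 had the largest shared change. It encodes a small inhibitor of ribonucleotide reductase that is strongly induced by the Mec1-Rad53 checkpoint. Its log2 values were 5.31 and 5.09 in hap1, 4.98 and 5.11 in hap4, 5.22 and 5.08 in sut1, 5.16 and 5.25 in rcs1, and 5.07 and 5.17 in yap7. The 10 replicates lay within 0.33 of each other, and the strains overlapped. The mean of 5.14 (SE 0.03, adjusted p = 2.0e-14) corresponds to a 35.4-fold higher ratio.

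The enzyme that HUG1 acts on rose with it. RNR3, the damage-induced large subunit, gave 3.22 and 3.14 in hap1, 2.93 and 3.37 in hap4, 3.75 and 3.83 in sut1, 3.59 and 3.56 in rcs1, and 3.63 and 3.73 in yap7. All replicates of sut1, rcs1 and yap7 were higher than all replicates of hap1 and hap4, but the F-test of equal strain means missed the threshold (adjusted p = 0.052). RNR4 and RNR1, a small and the main large subunit, rose by 2.12 (SE 0.04) and 1.77 (SE 0.04), and RNR2 by 0.94. RFX1, the repressor of these genes, rose by 0.54. Of the 9 genes in the ribonucleotide reductase list, 6 rose and 3 fell, and 8 moved alike. The 3 that fell hold the enzyme back or hold its small subunits in the nucleus. WTM1, the nuclear anchor of the small subunits, fell by 0.45 and DIF1, which imports them, by 0.19; SML1, the protein inhibitor, was called at -0.13 but stood at 0.06 in hap1, and its mean turned to 0.11 on the arrays with MMS in Cy5 alone.

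**Figure D1:**
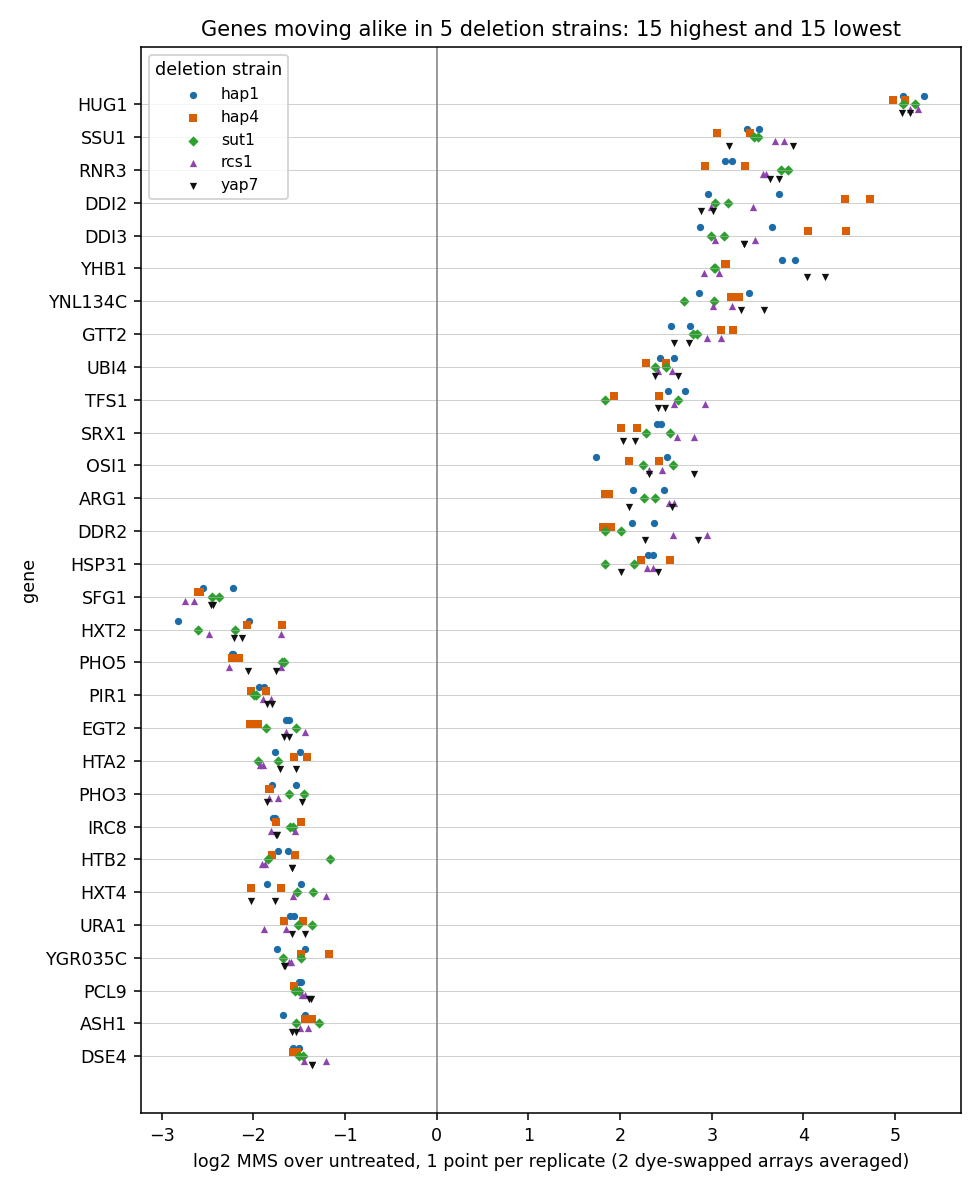
Log2 MMS over untreated of the 15 highest and the 15 lowest genes moving alike, 1 point per replicate, with 2 replicates for each of the 5 deletion strains. HUG1 lies between 4.98 and 5.31 in all 10 replicates, DDI2 is highest in hap4, and YHB1 is highest in yap7 and hap1.

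Targets of Fzf1, the zinc finger activator of sulfite and nitrosative stress genes, had the highest median of the 33 gene lists. All 6 measured genes rose and moved alike, with a median of 3.43 beside 0.01 over all genes. SSU1, the sulfite pump, rose by 3.49 (SE 0.06), between 3.05 and 3.89 over the replicates. YNR064C, an epoxide hydrolase, rose by 2.24, and FZF1 itself by 0.49.

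DDI2 and DDI3 encode the same cyanamide hydratase from near-identical copies, so a probe can read both, and they are treated here as 1 signal. DDI2 gave 2.96 and 3.73 in hap1, 4.46 and 4.72 in hap4, 3.17 and 3.03 in sut1, 2.99 and 3.45 in rcs1, and 2.89 and 3.01 in yap7. Both hap4 replicates were above all others, and the strain means differed (F-test adjusted p = 0.018). DDI3 had means from 3.06 to 4.26 with hap4 again the highest, and its F-test did not pass (adjusted p = 0.095).

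YHB1, the nitric oxide-consuming flavohemoglobin, moved alike but in more than one size. Its values were 3.91 and 3.76 in hap1, 3.15 and 3.16 in hap4, 3.03 and 3.02 in sut1, 2.91 and 3.08 in rcs1, and 4.03 and 4.23 in yap7. The yap7 and hap1 replicates lay above those of the other strains without overlap, and the F-test passed (adjusted p = 0.00045). YHB1 was among 8 genes that moved alike although their strain means differed; the others were AMN1, DDI2, ECL1, GCY1, ARO5, YNL046W and RTC2. With sut1 paired across numbers the F-test kept YHB1, DDI2 and ECL1 of these 8 and lost the rest, at adjusted p from 0.064 to 0.40.

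DNA repair genes moved by smaller amounts, with list medians from 0.10 to 0.32 beside 0.94 for the ribonucleotide reductase list. MAG1, the glycosylase that removes 3-methyladenine, rose by 1.25 (SE 0.03), from 1.06 to 1.53 over the replicates. DDI1, which shares an intergenic region with MAG1 and binds ubiquitin, rose by 1.23. Of 15 genes for base excision and direct reversal, 14 rose, none fell and 9 moved alike, with a median of 0.32. Of all genes 40.3% rose, 38.6% fell and 16.5% moved alike upward. The glycosylase NTG1 and the AP endonuclease APN1 rose by 0.63 and 0.56.

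For homologous recombination 15 of 22 measured genes rose and 3 fell, beside 40.3% and 38.6% of all genes, and 8 moved alike. Of those 8, 6 were higher and 2 lower, beside 16.5% and 13% of all genes. DIN7, a mitochondrial nuclease, rose by 1.30, and RFA2 and RFA1, subunits of the single-strand binding protein RPA, by 1.23 and 1.05. SGS1, a helicase, fell by 0.27 and moved alike, as did URA3 at -0.28, a gene these strains do not carry. In the list for nucleotide excision and post-replication repair, 12 of 23 genes rose and 4 fell, beside the same shares of all genes. RAD16 led at 0.88 (SE 0.03), with UBC13, a ubiquitin-conjugating enzyme, at 0.61. Of 20 checkpoint genes 10 rose and 5 fell, beside 40.3% and 38.6% of all genes, and the median was 0.07. DUN1, the kinase that controls the reductase genes, rose by 1.203 (SE 0.05) and RAD53, the kinase above it, by 0.56, while MEC1 fell by 0.28.

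In the list of replication genes PLM2, a forkhead-domain protein of the G1/S programme, rose by 1.63 and POL30, the sliding clamp PCNA, by 1.502 (SE 0.04 for both). Of 32 genes in the list, 20 rose and 8 fell, beside 40.3% and 38.6% of all genes, and 18 moved alike. Of those 18, 14 were higher and 4 lower, beside 16.5% and 13% of all genes. Of the 8 that fell, 5 were subunits of the MCM helicase: MCM7 by 0.70, MCM2 by 0.39, MCM4 by 0.30, MCM3 by 0.28 and MCM6 by 0.16.

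Proteasome genes rose as a body. All 38 genes rose and 37 moved alike, and the strain medians ran from 0.79 in sut1 to 0.90 in hap4. RPT2 and RPT3, ATPases of the regulatory particle, rose by 1.25 and 1.24, PRE3, a catalytic subunit, by 1.17, and UMP1, an assembly factor, by 1.12. RPN4, the activator of these genes, rose by 0.52. The single gene that did not move alike was RPN14, at 0.26. UBI4, the polyubiquitin gene, rose by 2.47 (SE 0.04), with strain means from 2.39 to 2.51.

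Under Yap1, the activator of oxidative stress genes, 30 of 33 listed genes rose, 2 fell and 23 moved alike, with strain medians from 0.81 in hap4 to 1.02 in rcs1. GTT2, a glutathione transferase, had replicate values of 2.55 and 2.76 in hap1, 3.23 and 3.10 in hap4, 2.79 and 2.84 in sut1, 3.10 and 2.95 in rcs1, and 2.59 and 2.76 in yap7. SRX1, sulfiredoxin, rose by 2.35, ECM4, another glutathione transferase, by 2.25, and TSA2, a peroxiredoxin, by 1.98. YAP1 itself rose by 0.95. The pentose phosphate enzyme GND1 fell by 0.28. Other genes among the 15 highest were YNL134C, an aldehyde reductase, at 3.16, OSI1 at 2.35 and HSP31, a glyoxalase and chaperone, at 2.25.

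The general stress genes under Msn2 and Msn4 rose in 29 of 32 cases. Strain medians were 0.76 in sut1, 0.88 in hap4, 1.12 in yap7, 1.22 in hap1 and 1.40 in rcs1, and 20 of the 32 moved alike. TFS1, a carboxypeptidase Y inhibitor, rose by 2.45 (SE 0.08) and DDR2, a stress gene named for DNA damage, by 2.27 (SE 0.06). HSP12, a membrane chaperone, was at 1.82 (SE 0.11) with replicates from 0.92 in hap4 to 3.40 in yap7, and did not move alike. By the F-test 1 of the 32 differed between strains: TMA10, with 0.05 in sut1 and 1.51 in rcs1 (adjusted p = 0.033). Its 4 sut1 arrays were at 1.25 and 0.44 on the first pair described above and -0.79 and -0.69 on the second, and the call was lost with sut1 paired across numbers (adjusted p = 0.42). On the sut1 arrays the list median was 1.28 and 0.89 on the first pair and 0.56 and 0.44 on the second.

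Trehalose and glycogen genes rose in 16 of 20 cases, yet 2 moved alike. TPS1, trehalose-6-phosphate synthase, rose by 1.26, with strain means from 0.999 in hap4 to 1.47 in rcs1. TSL1, a regulatory subunit of the same complex, ran from 0.44 in sut1 to 1.36 in rcs1 (F-test adjusted p = 0.017). Its sut1 arrays were at 1.196 and 0.92 on the first pair and -0.10 and -0.27 on the second, and the F-test call was lost with sut1 paired across numbers (adjusted p = 0.47). Of 30 chaperones 24 rose and 3 fell, beside 40.3% and 38.6% of all genes. Of the 30, 12 moved alike, all higher, beside 16.5% of all genes. The Hsp70 gene SSA4 led at 1.57, with HSP42 at 1.32 and HSP104 at 1.26. All 6 measured aryl-alcohol dehydrogenases rose and 3 moved alike, AAD6 reaching 1.05, and of 19 multidrug resistance genes 8 were called higher and 7 lower, beside 40.3% and 38.6% of all genes. Autophagy genes rose in 26 of 28 cases, beside 40.3% of all genes, and 8 moved alike, all higher, beside 16.5%. ATG8, the ubiquitin-like protein of the autophagosome, reached 1.10.

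Of 13 measured genes of arginine synthesis and breakdown 8 rose and 2 fell, beside 40.3% and 38.6% of all genes. Of the 13, 6 moved alike, and the median was 0.26. ARG1, argininosuccinate synthetase, gave 2.48 and 2.15 in hap1, 1.88 and 1.83 in hap4, 2.26 and 2.38 in sut1, 2.54 and 2.59 in rcs1, and 2.10 and 2.57 in yap7, the lowest pair being that of hap4. ARG3, ornithine carbamoyltransferase, rose by 1.87, ARG4, argininosuccinate lyase, by 1.53 and ARG7 by 1.23, all moving alike. The breakdown genes CAR1 and CAR2 fell by 0.22 and 0.31, but CAR1 was at 0.01 on the arrays with MMS in Cy5 alone. Of 39 other genes under Gcn4, 21 rose and 14 fell, beside the same shares of all genes, with a median of 0.15. LYS20, homocitrate synthase, rose by 1.30 and GDH1, the NADPH-dependent glutamate dehydrogenase, fell by 1.13. In sulfur metabolism 14 of 31 genes rose and 10 fell, again beside 40.3% and 38.6% of all genes. MET6, methionine synthase, fell by 1.14, SAM2 and SAM1, the S-adenosylmethionine synthetases, by 1.12 and 0.94, and SAH1, which hydrolyses S-adenosylhomocysteine, by 0.90, whereas MET2 rose by 1.06.

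**Figure D2:**
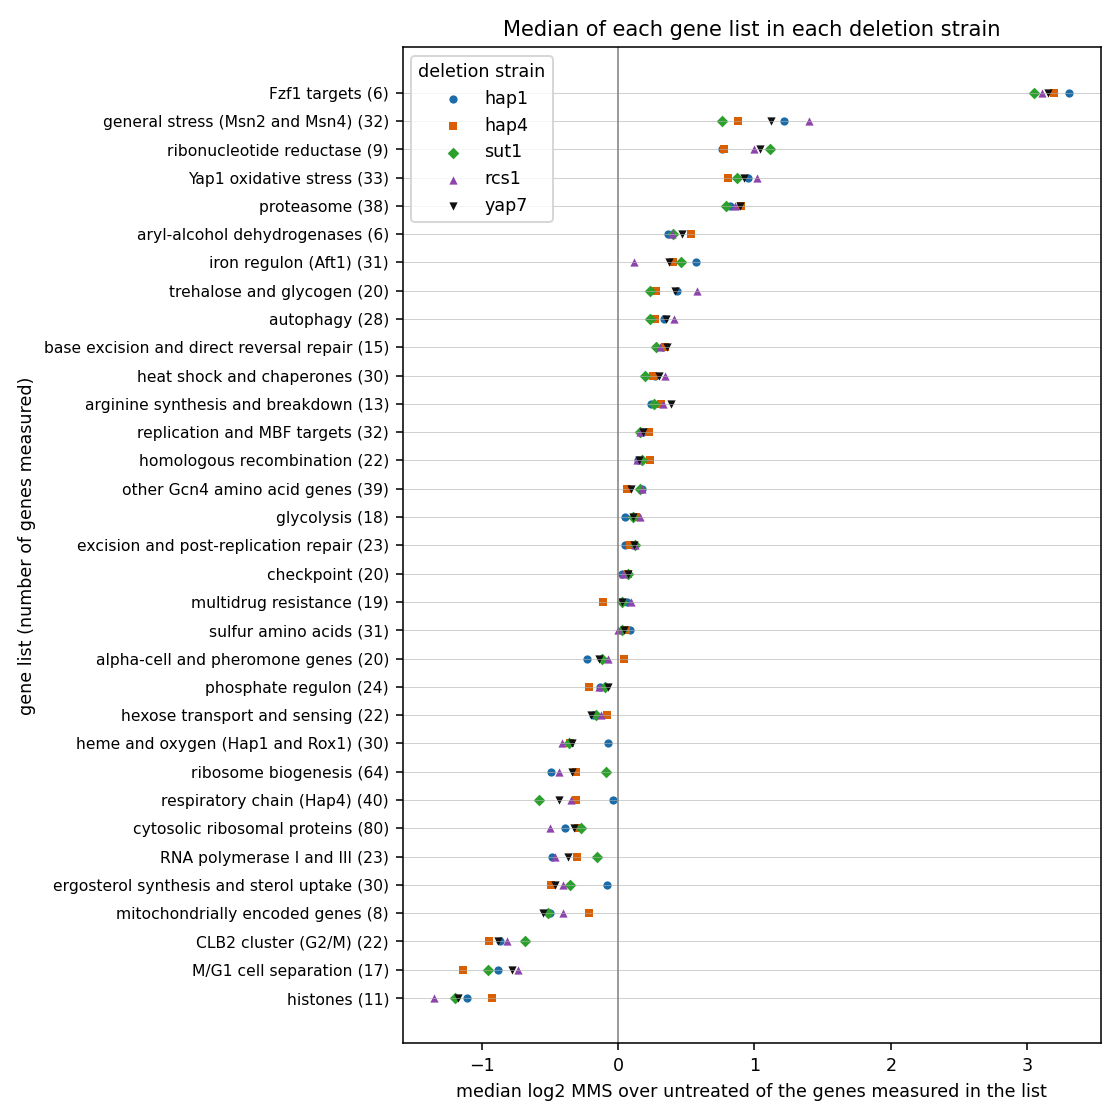
Median log2 MMS over untreated of the genes measured in each of 33 lists, 1 point per deletion strain. The proteasome medians lie between 0.79 and 0.90, the general stress medians spread from 0.76 in sut1 to 1.40 in rcs1, hap1 stands near 0 for the respiratory chain and ergosterol lists, and rcs1 at 0.11 for the iron list.

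Among genes that fell, SFG1 had the largest change of those that moved alike. It encodes a nuclear protein that promotes filamentous growth in this yeast. Its values were -2.22 and -2.55 in hap1, -2.58 and -2.60 in hap4, -2.45 and -2.38 in sut1, -2.75 and -2.65 in rcs1, and -2.46 and -2.44 in yap7, with a mean of -2.51 (SE 0.03). Both rcs1 replicates lay below the other 8, and the F-test did not pass (adjusted p = 0.31).

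Core histone genes fell together. Of 11 histone genes 9 fell, 7 of them at least 2-fold, and 8 of the 9 moved alike, with strain medians from -1.34 in rcs1 to -0.92 in hap4. HTA2 and HTB2, one of the H2A-H2B gene pairs, fell by 1.70 (SE 0.04) and 1.66 (SE 0.06), HHF2 by 1.25, HHT1 by 1.24 and HTA1 by 1.15. For HTB2 the arrays with MMS in Cy5 and Cy3 were at -0.91 and -2.84 in rcs1 replicate 2. In yap7 replicate 1 they were at -0.79 and -2.36. The SE of HTB2 was taken after such arrays were averaged and leaves these differences out. The gene copies for one core histone, such as HTA1 and HTA2, are close in sequence, so their probes may share signal. The linker histone HHO1 was not called at 0.01, HTZ1, the H2A.Z variant, fell by 0.82, and CSE4, the centromeric H3, rose by 0.38.

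Genes of the CLB2 cluster, which are transcribed in G2 and M phase, fell in 22 of 22 cases and moved alike in 18, with strain medians from -0.95 in hap4 to -0.68 in sut1. HST3, a histone H3 deacetylase, fell by 1.36, CHS2, the septum chitin synthase, by 1.36, HOF1, a ring protein of cytokinesis, by 1.29 and BUD4 by 1.18. CDC5, the polo kinase, fell by 1.10, SWI5, the activator of M/G1 genes, by 1.13, and CLB2, the mitotic cyclin, by 1.00.

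Genes of cell separation at M/G1 fell in 15 of 17 cases and moved alike in 11. PIR1, a cell wall protein, ran from -2.02 to -1.80 over the 10 replicates, with a mean of -1.90 (SE 0.03). EGT2 fell by 1.70, PCL9, a cyclin of Pho85, by 1.48, ASH1, the daughter-cell repressor, by 1.48, and DSE4, a daughter-cell glucanase, by 1.45. CTS1, the chitinase of the same set, was not called at 0.05, and PIR3 rose by 0.73. The ratios come from whole cultures, so a change in the share of cells at a stage and a change of transcript within a stage cannot be told apart.

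The acid phosphatases and hexose transporters gave other large falls. PHO5, the repressible acid phosphatase, had values from -2.27 to -1.67 and a mean of -1.999 (SE 0.05); PHO3 and PHO12 fell by 1.69 and 1.21. These genes are close copies and may share signal. Of 24 phosphate genes 12 fell and 8 rose, beside 38.6% and 40.3% of all genes, and PHM8, a nucleotidase, rose by 1.19. HXT2, a high-affinity glucose transporter, ran from -2.82 to -1.69 with a mean of -2.19 (SE 0.09), and HXT4 fell by 1.65. Of 22 hexose genes 15 fell and 6 rose, beside the same shares of all genes. The transporter HXT5 rose by 0.88 with a range from 0.06 to 1.26. URA1, dihydroorotate dehydrogenase, fell by 1.57 and the uncharacterised YGR035C and IRC8 by 1.55 and 1.68.

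Ribosome biogenesis genes mostly fell in the mean of the strains, but few moved alike, and the sut1 arrays differed in direction. Of 64 ribosome biogenesis genes, 58 fell and none rose, but 3 moved alike: RRP5, NIP7 and NOP56. The strain medians were -0.49 in hap1, -0.44 in rcs1, -0.34 in yap7, -0.30 in hap4 and -0.09 in sut1. None of the 64 differed between strains by the F-test, with sut1 paired by number or across numbers. The sut1 median averages 2 arrays where these genes were lower and 2 where they were higher. DBP2, an RNA helicase, gave -1.58 and -1.50 in hap1, -1.12 and -0.48 in hap4, -0.64 and -0.44 in sut1, -1.50 and -1.03 in rcs1, and -0.71 and -1.33 in yap7. The sut1 arrays of DBP2 were at -1.38 and -0.71 on the first pair and 0.10 and -0.18 on the second. The replicates of hap4 and of yap7 lay far apart and overlapped those of other strains.

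Polymerase I and III subunits had the same order of strain medians, from -0.48 in hap1 to -0.15 in sut1, with 20 of 23 genes lower and 7 alike; on the sut1 arrays the median was -0.45 and -0.29 on the first pair and 0.03 and 0.00 on the second. Ribosomal protein genes fell in 60 of 80 cases and rose in 8, and 30 moved alike, the largest being RPL9A at -0.89 (SE 0.03). Many of these are duplicate genes whose probes may share signal. Glycolytic genes moved little, with 14 of 18 called higher, 4 lower and a median of 0.11.

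Over the 215 genes changed at least 2-fold, sut1 had the smallest of the 5 strain means in size for 74 genes and the largest for 11. The strain rcs1 was the largest for 85 and the smallest for 20. The median size was 1.19 in sut1, 1.28 in hap4, 1.31 in yap7, 1.32 in hap1 and 1.38 in rcs1. The array least correlated with the others was that of sut1 replicate 1 with MMS in Cy3, at a mean r of 0.70 over probes, and among the sut1 arrays replicate 2 with MMS in Cy5 was next at 0.73. With sut1 replicate 1 taken from its MMS in Cy5 array alone, the median size in sut1 was 1.24.

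**Figure D3:**
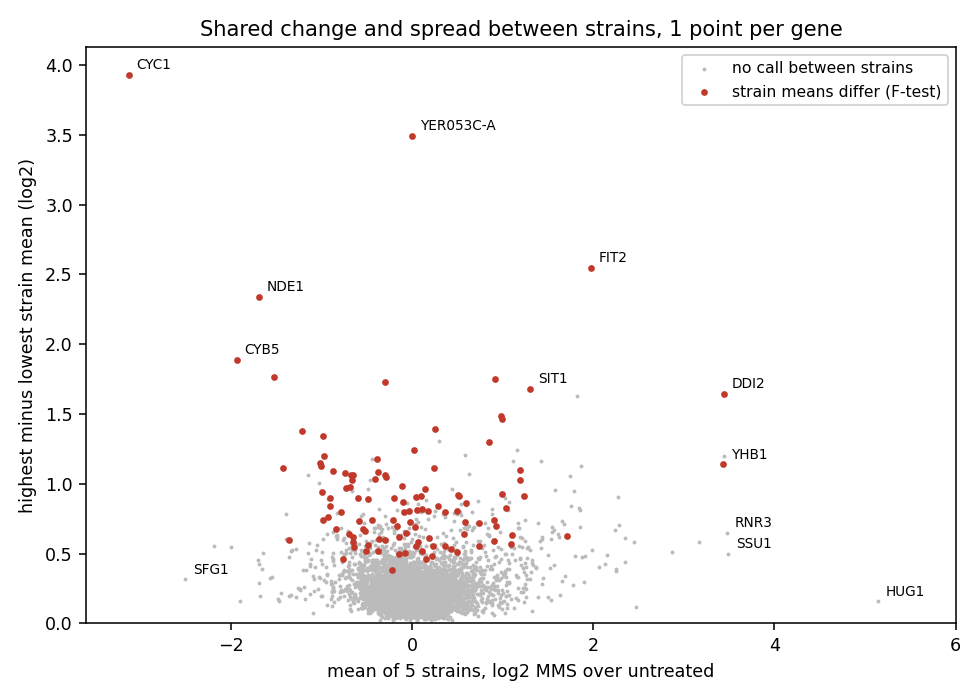
Highest minus lowest strain mean against the mean of 5 strains, both in log2, 1 point per gene, with genes whose strain means differed by the F-test in red. HUG1 and SFG1 pair a large mean with a small spread, while CYC1, NDE1, CYB5 and FIT2 pair a large mean with a large spread.

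The F-test of equal strain means, with 4 numerator degrees of freedom, called 110 genes (1.97%) after adjustment and 965 at an unadjusted p under 0.05. Of the 110, 20 were changed at least 2-fold in the mean. The strain farthest from the median of the 5 was hap1 for 54 of the 110, hap4 for 28, rcs1 for 14, sut1 for 13 and yap7 for 1. With sut1 paired across numbers 64 genes were called, 57 of them among the 110 and 17 at least 2-fold, and hap1 was the farthest for 39, hap4 for 12, rcs1 for 10, sut1 for 2 and yap7 for 1. In fits of 4 strains with the numbers as labelled the count was 35 without hap1, 60 without hap4, 84 without rcs1, 102 without sut1 and 136 without yap7. With the sut1 replicate 1 taken from its MMS in Cy5 array alone it was 55, and without single replicates it ran from 59 to 107.

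**Figure D4:**
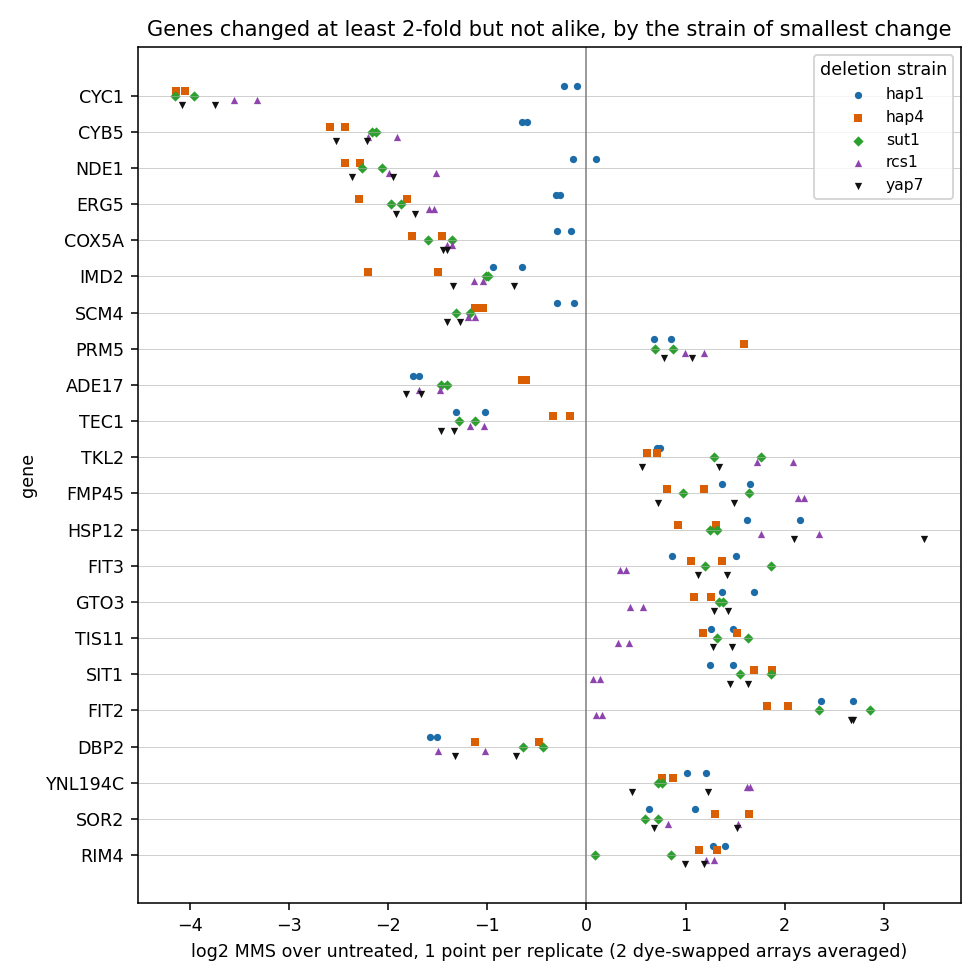
Replicate log2 MMS over untreated of the 22 genes changed at least 2-fold that did not move alike, ordered by the strain with the smallest change. The hap1 points lie near 0 for CYC1 and NDE1, the hap4 points of TEC1 lie nearer 0 than those of the other strains, and the rcs1 points lie near 0 for FIT2 and SIT1.

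CYC1, NDE1, CYB5, ERG5, COX5A and SCM4 had their smallest changes in hap1. CYC1, iso-1 cytochrome c and a textbook Hap1 target, had values of -0.23 and -0.10 in hap1, -4.05 and -4.14 in hap4, -3.96 and -4.15 in sut1, -3.56 and -3.32 in rcs1, and -3.75 and -4.08 in yap7. The hap1 replicates were separated from the rest by over 3 log2 units (F-test adjusted p = 8.1e-07). The external NADH dehydrogenase NDE1 was at -0.14 and 0.09 in hap1 and between -2.44 and -1.51 elsewhere. CYB5, cytochrome b5, had a hap1 mean of -0.63 against -2.51 to -2.06 in the other strains, and ERG5, a sterol desaturase, -0.29 against -2.05 to -1.56. COX5A, a cytochrome oxidase subunit, and SCM4 followed with hap1 means of -0.23 and -0.21. The F-test called all 6, with sut1 paired either way.

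In the respiratory chain list 32 of 40 genes fell, 2 moved alike and 16 differed between strains, against 1.97% of all genes; with sut1 paired across numbers 11 differed. The hap1 median was -0.03 and the others ran from -0.58 in sut1 to -0.31 in hap4. In the ergosterol list 26 of 30 fell, 4 moved alike and 10 differed (6 with sut1 paired across numbers), with a hap1 median of -0.08 and the others from -0.49 to -0.35. In the list of heme and oxygen genes 19 of 30 fell and 6 rose, beside 38.6% and 40.3% of all genes, and 10 differed. In that list 8 moved alike, 3 higher and 5 lower, beside 16.5% and 13% of all genes. Of 8 mitochondrially encoded genes 6 fell, none rose and 2 moved alike, with strain medians of -0.50 in hap1, -0.21 in hap4, -0.52 in sut1, -0.40 in rcs1 and -0.55 in yap7, so that hap1 was not the nearest to 0 there. ERG11, lanosterol demethylase, moved alike all the same, at -1.08 with -0.85 in hap1. HMX1, heme oxygenase, had opposite signs: 0.96 and 0.83 in hap1 against -0.96 to -0.30 in the other strains (F-test adjusted p = 0.00068). Each of these is a ratio within a strain, so a lower untreated level in hap1 and a smaller fall cannot be told apart.

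Iron genes rose in 23 of 31 cases, beside 40.3% of all genes. Of the 31, 7 moved alike, all higher, beside 16.5% of all genes, and 8 differed between strains, beside 1.97%. FIT2, a cell wall mannoprotein for siderophore uptake, gave 2.69 and 2.37 in hap1, 1.82 and 2.03 in hap4, 2.35 and 2.86 in sut1, 0.16 and 0.10 in rcs1, and 2.69 and 2.66 in yap7. SIT1, a siderophore transporter, was at 0.14 and 0.07 in rcs1 and between 1.25 and 1.87 elsewhere. The strain rcs1 was also the lowest for the mRNA-decay factor TIS11 at 0.37, for the glutathione transferase GTO3 at 0.50 and for the transporter ARN1 at -0.06, and the F-test called all 5. FIT3, at 0.37 in rcs1, missed the threshold (F-test adjusted p = 0.13). ECM4, the mitochondrial carrier MRS4, the scaffold genes ISU1 and ISU2, and SMF3 moved alike in spite of the deletion of AFT1, with rcs1 means of 2.44, 1.23, 0.96, 0.98 and 1.00.

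FAR1, BAR1, TEC1 and ADE17 had their smallest changes in hap4. FAR1, the Cdk inhibitor of the pheromone response, gave -0.09 and -0.12 in hap4 and -1.32 to -1.06 in the other strains, and BAR1, the alpha-factor protease, gave 0.14 and 0.01 against -1.07 to -0.57. TEC1, a filamentation activator, had a hap4 mean of -0.25 and ADE17, of purine synthesis, -0.63, with -1.40 to -1.10 and -1.75 to -1.43 in the others. The F-test called all 4. Of 20 listed mating and pheromone genes 11 fell and 4 rose, beside 38.6% and 40.3% of all genes, and 2 moved alike. PRM5 and IMD2 were largest in size in hap4, at 1.59 and -1.85, and the F-test called PRM5 (adjusted p = 0.018, or 0.13 with sut1 paired across numbers) and not IMD2 (adjusted p = 0.15). No gene of the 22 had its smallest change in yap7.

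EGO4, CYC7, CTT1 and ARN1 were called in the mean although their strain means held both signs. EGO4 was at -0.14 in hap4 and 1.61 in rcs1, CYC7, iso-2 cytochrome c, at -0.46 in hap4 and 0.93 in hap1, and CTT1, cytosolic catalase, at -0.31 in hap4 and 0.99 in hap1. The calls of CYC7, CTT1 and HMX1 were lost where strain differences entered the error, at adjusted p of 0.11, 0.092 and 0.13 with no strain terms. YER053C-A shows what the mean hides: it was not called at 0.00, with 2.30 in hap1, -1.11 in hap4 and -1.19 in sut1.

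The deleted genes gave ratios near 0 in their own strains: HAP1 at -0.09 in hap1, HAP4 at 0.07 in hap4, SUT1 at -0.04 in sut1, AFT1 at -0.05 in rcs1 and YAP7 at -0.08 in yap7. A ratio of 2 samples of the same strain does not check a deletion, since a missing transcript and an unchanged one look alike. In strains that kept it, HAP4 stood between -0.96 in sut1 and -0.21 in hap1, and SUT1 between -0.63 and -0.46. The sut1 mean of HAP4 joins arrays at -0.32 and -0.14 on the first pair with arrays at -1.72 and -1.66 on the second.

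A wild type, BY4741, stands in another table of the series, made from poly(A)-enriched RNA on another array design and normalized apart. It holds 4 arrays and 2 replicates, with MMS given as 0.03% in the growth text and 0.033% in the treatment text. No test was made across the tables. All 193 genes that moved alike at least 2-fold had the same sign in both wild-type replicates, and 164 were at least 2-fold in their mean. Of 1653 genes moving alike that both tables held, 93.8% had that sign in both replicates, beside 72.3% of all genes. HUG1 was at 4.07 in the wild type and 5.14 in the deletion strains, RNR3 at 4.24 and 3.48, YHB1 at 2.81 and 3.43, and HXT4 at -0.87 and -1.65. CYC1 was at -3.86 in the wild type, within the range of the 4 strains other than hap1.

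**Figure D5:**
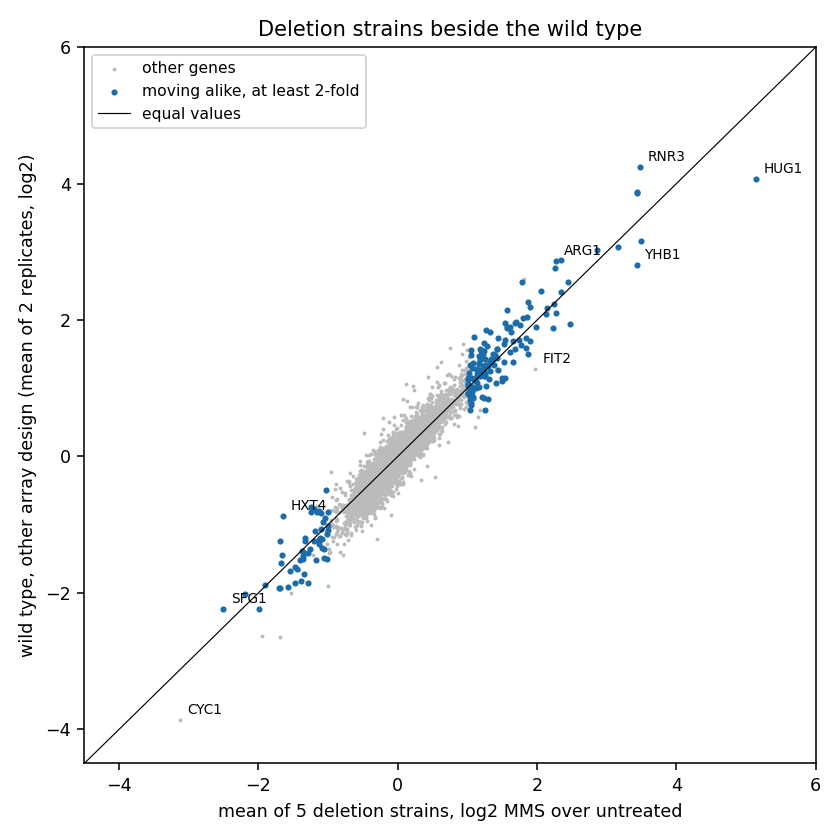
Log2 MMS over untreated in the wild type (mean of 2 replicates, another array design and RNA preparation) against the mean of the 5 deletion strains, 1 point per gene, with the line of equal values. The 193 genes moving alike at least 2-fold, in blue, all have the same sign on both axes; HUG1 lies below the line and RNR3 above it.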

How the data were processed

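The deposited values are log ratios of Cy5 over Cy3, 1 for each probe on each array, which the authors normalized with limma and which were taken as log2, per the submitters' processing notes for the tool. Its version, the log base and the centring are not given in the sources used here. Intensities were not used here, so signal over background is unknown. Values of arrays with MMS in Cy3, known from the labels, were multiplied by -1, and the dye-swapped arrays of a replicate were averaged. Array medians lay between -0.01 and 0.01, and opposite dyes correlated at -0.85 to -0.63 as deposited. Of 6256 probes 5609 had 1 gene symbol and 647 none; probes of one gene were averaged, for 16 genes.

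limma 3.58.1 in R 4.3.3 fitted 5 strain means (5 residual degrees of freedom, prior 4.80); the contrast, the F-test and the adjustment ran over 5592 genes. The step was tested on simulated data. The members, the 33 gene lists and the tests were chosen with earlier results of these data known. Named genes were the 15 highest and 15 lowest moving alike, the 5 largest F at least 2-fold, 5 called with both signs, the deleted genes, up to 4 leading members of each list and those opposite to it, and the 22 genes not alike; other members were named after their values were seen. The 48 arrays of other deletion strains were not used here, nor were sequences. Alternatives covered strain and replicate terms, dyes, the pairing of sut1 arrays, scaling, prior, probes, fold tests and left-out samples.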

Additional observations from a re-analysis of the deposited data

Results flagged for a closer look

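Strain means of 32 of the named genes differed by the F-test, and the value given is the highest minus the lowest strain mean on the log2 scale. With hap1 the farthest from the rest these were CYC1 at 3.93, YER053C-A at 3.49, NDE1 at 2.34, CYB5 at 1.89, ERG5 at 1.77, HMX1 at 1.73, COX5A at 1.38 and SCM4 at 1.13. With rcs1 the lowest they were FIT2 at 2.55, SIT1 at 1.68, ARN1 at 1.30, TIS11 at 1.10 and GTO3 at 1.02. With hap4 the farthest they were DDI2 at 1.64, FAR1 at 1.198, TEC1 at 1.15, ADE17 at 1.11, BAR1 at 1.06 and PRM5 at 0.83. The others were not sorted by strain, though hap4 was the farthest for EGO4 and hap1 for CYC7. They were EGO4 at 1.75, TMA10 at 1.46, CYC7 at 1.39, YHB1 at 1.14, HAP4 at 1.03 and TSL1 at 0.93. Next came ECL1 at 0.91, ARO5 at 0.63, GCY1 at 0.62, AMN1 at 0.59, RTC2 at 0.57, YNL046W at 0.46 and CAR1 at 0.38. With sut1 arrays paired across replicate numbers 21 of the 32 were still called, and the calls of AMN1, ARO5, CAR1, EGO4, GCY1, HAP4, PRM5, RTC2, TMA10, TSL1 and YNL046W were lost, at adjusted p from 0.064 to 0.55. Calls were gained for HXT5, CTT1 and ATG41, at F-test adjusted p of 0.016, 0.036 and 0.041. HAP4 is the deleted gene of one of these strains, and its value there was 0.07.

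One replicate of 10 lay far from the other 9 for 7 of the 177 named genes, a share no larger than the 1 gene in about 20 that chance alone gives. HTB2 was at -1.16 in sut1 replicate 2, where the nearest value was -1.54. HXT5 was at 0.065 in sut1 replicate 2, the nearest at 0.66. Paired across replicate numbers, the 2 sut1 values were -1.58 and -1.43 for HTB2, and 0.40 and 0.50 for HXT5. PHM8 was at 0.51 in hap4 replicate 2, the nearest at 0.99, and YGR035C at -1.18 in the same replicate, the nearest at -1.44. PRE3 was at 0.98 in rcs1 replicate 2, the nearest at 1.14. In hap1 UBC13 was at 0.74 in replicate 2, the nearest at 0.64, and HAP1, deleted there, at 0.091 in replicate 1, the nearest at -0.09. Their causes were not tested.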

How the results depend on the processing

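Counts of genes called at least 2-fold stayed within 1.5 times of 152 higher and 63 lower under every alternative run, as did the 193 moving alike at that size. Alternatives that changed only the error term or the pairing of arrays left each gene's mean as it was, so these counts could hardly move there. The means did change on arrays with MMS in Cy5 or Cy3 alone. There 165 and 141 genes were higher, 70 and 62 lower, and 197 and 166 moved alike at that size. Against a 1.2-fold change 858 genes were called higher and 672 lower, and 455 moved alike downward. A smallest strain mean of at least 0.67 of the largest left 438 higher and 284 lower moving alike. The F-test count of 110 was the least stable: it was 358 with 20 arrays and dye-swapped arrays as a random block, 31 and 46 on arrays with MMS in Cy5 or Cy3 alone, 35 without hap1, 60 without hap4, 84 without rcs1, 102 without sut1, 136 without yap7, 55 with the sut1 replicate 1 from its MMS in Cy5 array, 64 with the sut1 arrays paired across replicate numbers (both chosen after seeing the data), and 59 to 107 without single replicates. The causes were not tested. Genes called in all 5 strains numbered 1078 and 1225 on arrays with MMS in Cy5 or Cy3 alone.

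The replicate numbers did not pair the strains, as deviations of same-numbered samples correlated at -0.40 to 0.15. With the replicate block 2239 genes were called higher, 2130 lower, 925 and 729 moved alike and 100 differed between strains. Of 924 recomputed list medians 21 moved by at least the spread between replicates and 2 changed sign, both for multidrug resistance (-0.04 on arrays with MMS in Cy3 alone, -0.02 without rcs1). Of 4956 recomputed values of named genes, 65 lost their call, 4 gained one and 2 changed sign: on arrays with MMS in Cy5 alone SML1 was at 0.11 and CAR1 at 0.0094. No intensities were used, so low signal could not be weighed, and a ratio near 0 can come from a probe near background.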

Other observations

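Nucleotide synthesis fell while ribonucleotide reductase rose; these genes were grouped after their values were seen. Of 16 measured genes of purine nucleotide synthesis 15 fell and 1 rose, beside 38.6% and 40.3% of all genes. Of the 16, 9 moved alike, and strain medians ran from -0.84 in rcs1 to -0.52 in sut1. ADE6, ADE13 and ADE1, enzymes of the AMP and IMP branches, fell by 1.18, 1.13 and 1.05, and the IMP dehydrogenase genes IMD3 and IMD4, close copies, by 0.99 and 0.87. All 8 measured genes of one-carbon supply were called lower, beside 38.6% of all genes, but 4 moved alike. Only 1 of the 8 fell at least 2-fold: SHM2, cytosolic serine hydroxymethyltransferase, which fell by 1.40. GCV3 and DFR1 were at -0.22 and -0.16, smaller in size than URA3 at -0.28, a gene these strains do not carry. Of 8 genes of pyrimidine synthesis 6 fell and 2 rose, beside the same shares of all genes, and 5 moved alike. URA2, the first enzyme of the pathway, fell by 0.88 and URA10, a minor orotate phosphoribosyltransferase, rose by 0.71.

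The 6 aldo-keto reductases measured all rose and moved alike, beside 40.3% and 16.5% of all genes, with a median of 1.199. YDL124W was at 1.91, GCY1 at 1.70, YJR096W at 1.36, GRE3 at 1.04, YPR1 at 0.70 and ARA1 at 0.67. Reading frames within the introns of mitochondrial COX1 were all called lower, 5 of 6 moving alike, beside 38.6% and 13% of all genes. AI5_BETA was at -1.10, AI5_ALPHA at -1.01 and AI4 at -1.002. The size of these falls depended on the dye, and each of the 6 fell further on arrays with MMS in Cy5 than in Cy3. In that order AI2 was at -1.42 and -0.33, AI5_BETA at -1.51 and -0.70, and AI4 at -1.18 and -0.82. AI1 and AI3 were each above 0 on 4 of the 20 arrays. COX1 itself was at -0.87 with replicates from -1.27 to -0.19.

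Genes that BY4741 lacks in whole or part still gave small called ratios. URA3 was at -0.28 with strain means from -0.33 to -0.24, and it met the definition of moving alike. LEU2 was at -0.13 and HIS3 at -0.08, both called, and MET17 at 0.00 was not.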
